A study of Mus musculus with 8 samples.

Results

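A group of 9 enzymes that supply DNA synthesis with deoxynucleotides was followed in irradiated LLC1 cells: Rrm1, Rrm2, Rrm2b, Tyms, Dut, Tk1, Dck, Dctd and Samhd1. The members were all probes that carry 1 of these 9 symbols, 17 probes in all. For 8 of the 9 genes a probe was above background and entered the test, among 13409 genes tested and 21196 symbols on the array. Rrm2b was not above background on any array.

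LLC1 is a line of C57BL/6 mouse lung cancer cells (Lewis lung carcinoma), grown in culture and treated with X-rays. RNA was taken 4 h after treatment and hybridised to arrays of 2 colours, with RNA of irradiated cells in Cy5 and RNA of untreated cells in Cy3 on every array. Of the 8 arrays, 3 hold cells given 2 Gy at once, 2 hold cells given 10 Gy at once, and 3 hold cells given 5 fractions of 2 Gy, written 5x2 Gy. The labels call the replicates biological and count 3 per regimen; the remaining one of 10 Gy was not analysed here. Not given in the labels are the time between fractions and whether the untreated RNA of different arrays came from separate cultures. No dyes were exchanged, so a dye effect of a single gene cannot be told apart from irradiation in any comparison with untreated cells. All groups are the same line, with no other genetic change named.

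As background, ribonucleotide reductase turns ribonucleotides into deoxyribonucleotides. Its large subunit is Rrm1, its small subunit in dividing cells is Rrm2, and Rrm2b is the small subunit that p53 induces after DNA damage. Thymidylate is then made by thymidylate synthase (Tyms) from dUMP, which reaches it through dUTPase (Dut), which also keeps uracil out of DNA, and through dCMP deaminase (Dctd). Thymidine kinase (Tk1) and deoxycytidine kinase (Dck) salvage nucleosides, and Samhd1 breaks deoxynucleotide triphosphates down. Many of these genes are transcribed mainly in S phase, in part through E2F factors.

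The start regions of 4 members are printed because they belong to the enzyme with a subunit pair (Rrm1 and Rrm2) and to the pair whose ratios to untreated cells were lowest after 5x2 Gy (Tyms and Dut). Each is 300 bases, 250 before and 50 after the gene's start, 5′ to 3′ on the gene's strand, from RefSeq on GRCm38.p6, which had windows for 8 of the 9 members. They lie at chr7:102441445-102441744 (+ strand) for Rrm1, chr12:24708004-24708303 (+ strand) for Rrm2, chr5:30073576-30073875 (- strand) for Tyms and chr2:125247265-125247564 (+ strand) for Dut. Capitals mark CCAAT, the letters of the box bound by NF-Y.
Rrm1: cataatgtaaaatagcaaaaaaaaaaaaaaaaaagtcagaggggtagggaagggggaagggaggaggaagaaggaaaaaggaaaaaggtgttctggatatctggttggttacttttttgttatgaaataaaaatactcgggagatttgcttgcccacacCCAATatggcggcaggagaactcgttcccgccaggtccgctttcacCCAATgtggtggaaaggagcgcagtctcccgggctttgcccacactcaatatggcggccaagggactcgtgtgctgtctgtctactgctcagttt
Rrm2: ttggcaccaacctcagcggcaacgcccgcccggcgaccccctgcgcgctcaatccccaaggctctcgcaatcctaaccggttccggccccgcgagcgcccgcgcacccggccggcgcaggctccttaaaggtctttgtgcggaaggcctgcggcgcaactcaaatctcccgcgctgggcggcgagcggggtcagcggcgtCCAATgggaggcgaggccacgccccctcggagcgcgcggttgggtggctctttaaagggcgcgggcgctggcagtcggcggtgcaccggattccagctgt
Tyms: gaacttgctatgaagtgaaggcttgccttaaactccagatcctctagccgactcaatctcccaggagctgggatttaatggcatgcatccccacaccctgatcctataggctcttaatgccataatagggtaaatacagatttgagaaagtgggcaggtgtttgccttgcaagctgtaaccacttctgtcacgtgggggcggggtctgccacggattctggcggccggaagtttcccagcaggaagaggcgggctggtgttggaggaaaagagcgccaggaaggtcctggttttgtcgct
Dut: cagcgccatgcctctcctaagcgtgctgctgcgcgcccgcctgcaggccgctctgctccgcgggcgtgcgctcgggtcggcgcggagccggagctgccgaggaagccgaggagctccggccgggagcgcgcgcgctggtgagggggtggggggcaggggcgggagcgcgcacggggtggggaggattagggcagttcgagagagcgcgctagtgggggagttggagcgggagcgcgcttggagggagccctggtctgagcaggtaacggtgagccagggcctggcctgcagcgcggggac
Both reductase windows hold CCAAT, Rrm1 at -91 and -45 and Rrm2 at -50 from the start, and the windows of Tyms and Dut do not. On both strands CCAAT stands in 37.4% of the 32851 windows of this length in the table. GGGCGG, the letters of a GC box, stands 2 times in the Rrm2 window and 1 time each in those of Tyms (-54) and Dut (-94), but not in that of Rrm1, and in 35.7% of all windows. None of the 8 members' windows holds TTTCCCGC, TTTCGCGC, TTTGCCGC or TTTGGCGC, letters of E2F sites searched on both strands, which stand in 2.26% of all windows. A missing match says only that these letters are not in this window.

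The arrays lie on 2 slides, named by the scan images: slide 1 holds the 3 arrays of 2 Gy and 10 Gy replicate 1, and slide 2 holds 10 Gy replicate 2 and the 3 arrays of 5x2 Gy. The 10 Gy arrays stand apart from each other. The log2 ratios of all genes correlated with r of 0.427 between them, against 0.651 to 0.812 among the 2 Gy arrays and 0.829 to 0.886 among the 5x2 Gy arrays, while r was 0.748 to 0.854 between 10 Gy replicate 2 and the arrays of 5x2 Gy. Between 34.7% and 47.5% of probes were above background in the irradiated channel and 44.8% to 49.1% in the untreated one. Of the cell type markers, Krt8 and Krt18 (epithelium) and Vim and Fn1 (mesenchyme) were above background on 8 of 8 untreated arrays, while Epcam, Cdh1, Sftpa1, Nkx2-1, Ptprc, Adgre1 and Pecam1 were so on 0. Cd3e, a T cell marker, passed on 8 of 8 untreated arrays at no more than 1.25 times the detection level, and Sftpc and Cdh5 passed on 1 and 3.

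The signals show how well each member was measured. A probe was called above background where its mean signal exceeded the detection level, the median of 153 negative control spots plus 2.6 robust SD in the same array and channel. Dut (A_51_P418469) and Tk1 (A_51_P224013) were the brightest, at 37.7 to 91.8 and 35.4 to 110 times the detection level over all arrays and both channels. Rrm1 (A_51_P502082), Rrm2 (A_51_P110689) and Tyms (A_51_P398366) lay between 9.12 and 29.6 times that level. Dctd (A_52_P301085) reached 4.90 to 9.93, Dck (A_51_P500713) 1.94 to 3.94 and Samhd1 (A_52_P466090) 1.28 to 2.70 times the level, so that Samhd1 was measured closest to its limit. No spot of a member was saturated, and spots with a flag of unstated meaning were kept: 5 of Dut, 3 of Tk1, 2 of Tyms and 1 of Rrm2 among the tested probes. Levels of different probes were not set against each other as amounts of RNA.

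**Figure D1:**
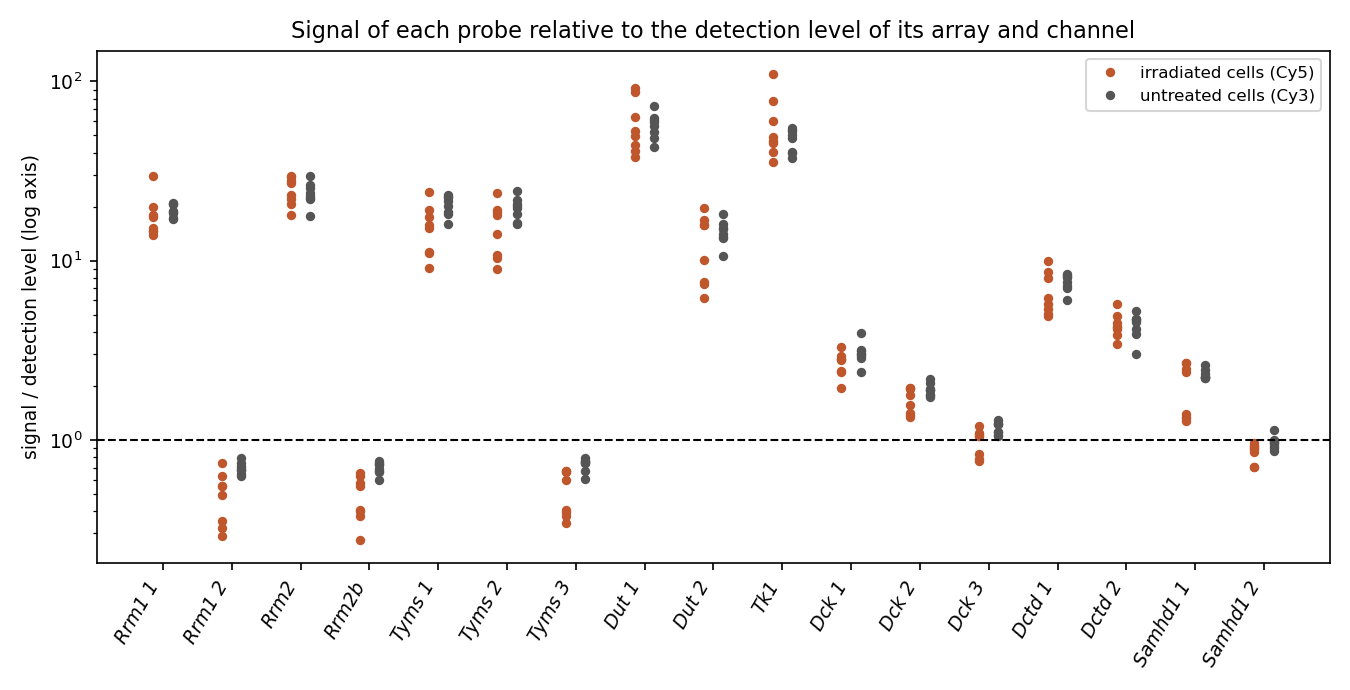
Mean signal of the 17 probes of the 9 genes divided by the detection level of the same array and channel (log axis), with irradiated cells (Cy5) left of untreated cells (Cy3), 8 arrays each, and the detection level drawn as a dashed line. Numbers after a symbol count its probes, the tested one being the first; Rrm2b stays at or below 0.758 on all arrays, and Dut and Tk1 are brightest.

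Against untreated cells, some members were called lower in every regimen and none was called higher. After 2 Gy, Rrm1, Rrm2, Tyms, Dck and Dctd fell, 5 of the 8 tested members, against 16.9% of all genes called in either direction, 7.92% lower and 8.98% higher. After 10 Gy, Rrm1, Tyms and Dut fell, 3 of 8, against 28.2% of all genes called, 15.8% lower and 12.4% higher. After 5x2 Gy, Tyms, Dut, Dctd and Samhd1 fell, 4 of 8, against 41.0% called, 23.3% lower and 17.6% higher. Tyms, which makes thymidylate, is the member that passed in each of these comparisons. The median log2 ratio of the members was -0.35 after 2 Gy, -0.38 after 10 Gy and -0.32 after 5x2 Gy, beside medians of all genes of -0.003, -0.06 and -0.02. A call is an adjusted p under 0.05 from limma (two-sided, Benjamini-Hochberg over all 13409 genes), with no minimum fold. In RNA of whole cultures, fewer cells that express a gene and less of its RNA per cell cannot be told apart.

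Single arrays decide these counts in part, and the share of all genes called moved with them. This share was 12.6%, 12.4% and 10.8% at 2 Gy without 5x2 Gy replicates 1, 2 and 3. At 5x2 Gy it was 23.1% and 22.4% without 5x2 Gy replicates 2 and 3. Without 2 Gy replicate 1 the count at 2 Gy was 1, with 7.03% of all genes called. Without 2 Gy replicate 2 or 3 it was 0, with 3.65% and 3.04% of all genes called. Leaving out 5x2 Gy replicate 1 or 2 gave 3, 5x2 Gy replicate 3 gave 1, and either of the 10 Gy arrays gave 6, where 40.2% of all genes were called. At 10 Gy a single array remains when either of its arrays is left out, so no count is given for that. The count at 5x2 Gy was 2 without 5x2 Gy replicate 2 or 3. The 2 Gy arrays all lie on slide 1. With the slide as a fixed block, which reads the slide from the 10 Gy arrays alone, other members were called after 2 Gy. Tk1 was higher and Dck, Dctd and Samhd1 were lower, with 33.3% of all genes called. Rrm1 (-0.26, adjusted p = 0.155), Rrm2 (-0.25, 0.186) and Tyms (-0.33, 0.0778) missed the threshold. The way dyes were balanced also moved the counts. Median centring centred arrays on their median and left out the loess curve, which removes dye bias linked to brightness. With it 0 members were called lower and 1 higher (Tk1) after 2 Gy, with 26.9% of all genes called. After 10 Gy 1 was lower (Tyms), with 29.1% of all genes called. After 5x2 Gy 3 were lower (Tyms, Dut and Samhd1), with 39.0% of all genes called. Of all genes called after 2 Gy, 53.1% were higher with loess and 82.3% with median centring, and after 10 Gy 44.0% and 58.7%. Median centring moved the median of all genes to 0.13 at 2 Gy.

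**Figure D2:**
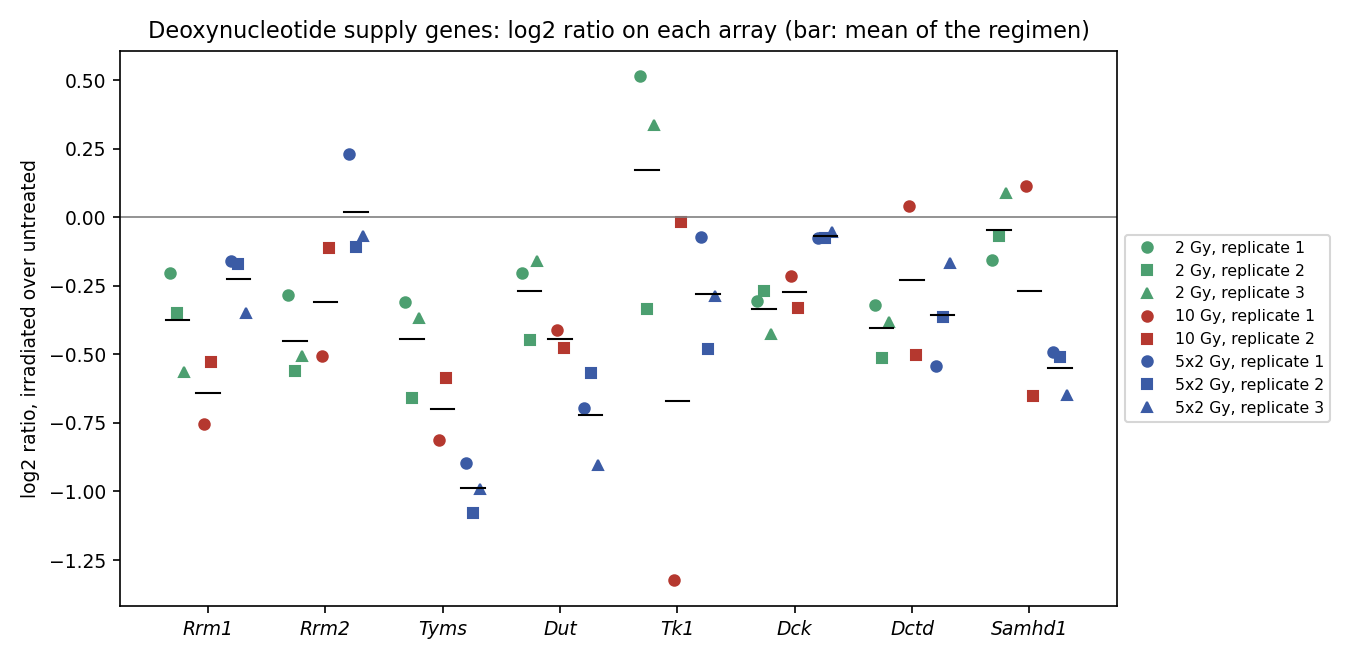
Log2 ratio of irradiated over untreated cells for the 8 tested members on each of the 8 arrays after loess normalization, by regimen (2 Gy, 10 Gy, 5x2 Gy from left to right), with a bar at each regimen's mean. All arrays of Rrm1, Tyms, Dut and Dck lie below 0, Tyms reaches -0.90 to -1.08 on the 5x2 Gy arrays, and the 10 Gy arrays of Tk1 lie at -1.32 and -0.02.

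Rrm1, the large subunit that holds the active site and the allosteric sites of ribonucleotide reductase, was lower on every array. Its log2 ratios were -0.20, -0.35 and -0.57 after 2 Gy, -0.75 and -0.53 after 10 Gy, and -0.16, -0.17 and -0.35 after 5x2 Gy. The 10 Gy arrays are the lowest but for 2 Gy replicate 3, which lies between them. Rrm1 fell by 0.37 on the log2 scale after 2 Gy (SE 0.10, limma adjusted p = 0.0335) and by 0.64 after 10 Gy (SE 0.12, adjusted p = 0.00512), a level of 0.641 times that of untreated cells. After 5x2 Gy its mean was -0.23 ± 0.10 (SE), which missed the threshold (adjusted p = 0.0996). The 10 Gy value rests on an estimate of spread shared by all arrays: from the 10 Gy arrays alone its adjusted p was 0.290. With median centring Rrm1 was at -0.03 after 2 Gy (adjusted p = 0.864) and at -0.36 after 10 Gy (adjusted p = 0.0647), so both calls ended there. The 2 Gy call also ended without any 1 of the 2 Gy arrays (-0.46, -0.38 and -0.28 without replicates 1, 2 and 3, adjusted p = 0.0586, 0.145 and 0.246) or any 1 of the 5x2 Gy arrays (adjusted p = 0.0574 to 0.0603). The 5x2 Gy mean passed when either of the 10 Gy arrays was left out (adjusted p = 0.0388). A second Rrm1 probe (A_52_P606866) was not above background on any array.

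Rrm2, the small subunit that carries the tyrosyl radical and is made in S phase, was lower on all single-dose arrays. The log2 ratios were -0.28, -0.56 and -0.50 after 2 Gy, -0.50 and -0.11 after 10 Gy, and 0.23, -0.11 and -0.07 after 5x2 Gy. The 2 Gy arrays and the 5x2 Gy arrays do not overlap. Rrm2 fell by 0.45 after 2 Gy (SE 0.11, limma adjusted p = 0.0258). Its means of -0.31 ± 0.14 after 10 Gy and 0.02 ± 0.11 after 5x2 Gy (SE) were not called (adjusted p = 0.124 and 0.912). With median centring the 2 Gy value was -0.08 (adjusted p = 0.615). That call ended without any 1 of the 2 Gy arrays, at -0.53, -0.39 and -0.42 without replicates 1, 2 and 3 (adjusted p = 0.0583, 0.165 and 0.159), and without 5x2 Gy replicate 3 (adjusted p = 0.0512). Without 10 Gy replicate 2 the 10 Gy value was -0.50, which rests on a single array.

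For Rrm2b, the p53-inducible small subunit, the array gave no measurement. Its 1 probe (A_52_P573727) had mean signals of 83 to 257 in irradiated cells and 206 to 311 in untreated cells, at 0.277 to 0.758 times the detection level. The probe was above background on 0 of 8 arrays in both channels, so no fold is given and nothing follows about induction of the gene. Of the 3 electron donors of the reductase in the pathway list, Txn1 (thioredoxin) fell by 0.79 after 5x2 Gy (SE 0.12, limma adjusted p = 0.00122), and Glrx (glutaredoxin) rose by 0.47 (SE 0.13, adjusted p = 0.0148). Neither they nor Txnrd1 passed after 2 Gy or 10 Gy, but with median centring Txn1 was called higher after 2 Gy, at 0.66 (adjusted p = 0.0274), against 0.03 with loess. Glrx was picked after its value was seen, as the only member of that list called higher.

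Tyms, which methylates dUMP to dTMP, was lower on all 8 arrays and had the lowest mean of the members after 10 Gy and after 5x2 Gy. The log2 ratios were -0.31, -0.66 and -0.37 after 2 Gy, -0.81 and -0.59 after 10 Gy, and -0.90, -1.08 and -0.99 after 5x2 Gy. The arrays of 5x2 Gy lie below all others, while those of 10 Gy and 2 Gy overlap. Tyms fell by 0.44 after 2 Gy (SE 0.10, limma adjusted p = 0.0174), by 0.70 after 10 Gy (SE 0.12, adjusted p = 0.00344) and by 0.99 after 5x2 Gy (SE 0.10, adjusted p = 0.000223). The last is 0.504 times the level of untreated cells, with a 95% interval of -1.21 to -0.76 on the log2 scale. Before normalization Tyms had 3312, 2564 and 2645 units in the irradiated channel of the 5x2 Gy arrays, against 8059, 7515 and 7399 units in the untreated channel. The detection level of these arrays was also lower in the irradiated channel, at 236 to 299 units against 346 to 371. On the 2 Gy arrays Tyms had 6713, 6292 and 7783 units in irradiated cells against 6921, 6296 and 7245 in untreated cells.

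The call of Tyms after 5x2 Gy passed in all 23 alternatives tried, at -1.10 to -0.84. After 10 Gy it passed in 21 of 23, ending with array weights (adjusted p = 0.234) and in a fit of the 10 Gy arrays alone (adjusted p = 0.241). After 2 Gy it passed in 18 of 23: median centring gave -0.12 (adjusted p = 0.399), the slide as a fixed block -0.33 (0.0778) and as a random block -0.37 (0.445), and the call also ended without 2 Gy replicate 2 (-0.34, adjusted p = 0.143) or 2 Gy replicate 3 (-0.48, adjusted p = 0.093). A second Tyms probe above background (A_52_P292651) had means of -0.36 ± 0.26, -0.56 ± 0.10 and -1.02 ± 0.09 (SD, n = 3, 2 and 3) after 2 Gy, 10 Gy and 5x2 Gy. A further probe (A_51_P375761) was not above background on any array.

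Dut, which hydrolyses dUTP to dUMP, showed the next lowest mean after 5x2 Gy. The log2 ratios were -0.20, -0.45 and -0.16 after 2 Gy, -0.41 and -0.48 after 10 Gy, and -0.69, -0.57 and -0.90 after 5x2 Gy. The 5x2 Gy arrays again lie below all others. Dut fell by 0.44 after 10 Gy (SE 0.12, limma adjusted p = 0.0244) and by 0.72 after 5x2 Gy (SE 0.10, adjusted p = 0.000773). With flagged spots left out Dut was not tested. Of the other 22 alternatives, 16 kept the call at 10 Gy and 21 that at 5x2 Gy. The 10 Gy call ended with median centring, with scaling between arrays (adjusted p = 0.06) and with array weights (0.569). It also ended with the replicate number as a block (0.0756), the slide as a random block (0.183) and from the 10 Gy arrays alone (0.506). The 5x2 Gy call of Dut ended with the slide as a random block (adjusted p = 0.0718). After 2 Gy its mean of -0.27 ± 0.10 (SE) missed the threshold (adjusted p = 0.091), and it passed when either of the 10 Gy arrays was left out (adjusted p = 0.0307).

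For this bright probe the direction on slide 1 depends on how the dyes were balanced. On the 2 Gy arrays the unnormalized signals of Dut were 24188, 21861 and 28139 in irradiated cells against 19333, 16795 and 19310 in untreated cells, and on 10 Gy replicate 1 they were 34931 against 19506. On slide 2 they were lower in irradiated cells, at 14974 against 24724 on 10 Gy replicate 2, and at 13157, 11521 and 8901 against 26036, 21981 and 21696 on the 5x2 Gy arrays. With median centring Dut turned to 0.27 after 2 Gy (adjusted p = 0.235), which is 0.14 above the median of all genes there, and to 0.20 after 10 Gy (adjusted p = 0.467). It stayed called after 5x2 Gy, at -0.58 (adjusted p = 0.0181). A second, dimmer Dut probe (A_52_P480360) had means of -0.12 ± 0.13, -0.67 ± 0.26 and -0.86 ± 0.21 (SD, n = 3, 2 and 3) after 2 Gy, 10 Gy and 5x2 Gy.

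Dctd deaminates dCMP to dUMP, the substrate of Tyms. Its log2 ratios were -0.32, -0.51 and -0.38 after 2 Gy, 0.04 and -0.50 after 10 Gy, and -0.54, -0.36 and -0.17 after 5x2 Gy. Of the 10 Gy arrays 1 lies above 0 and all arrays of the other regimens below it. Dctd fell by 0.41 after 2 Gy (SE 0.12, limma adjusted p = 0.0468) and by 0.36 after 5x2 Gy (SE 0.12, adjusted p = 0.0385), and at 10 Gy its mean was -0.23 ± 0.15 (SE, adjusted p = 0.269). Without 10 Gy replicate 1 the 10 Gy value was -0.50, which rests on a single array. Both calls sit near the threshold, and each passed in 11 of 23 alternatives. Each ended without any 1 of its own 3 arrays: at 2 Gy the value was -0.45 without 2 Gy replicate 1 (adjusted p = 0.117), -0.35 without 2 Gy replicate 2 (0.232) and -0.42 without 2 Gy replicate 3 (0.189), and at 5x2 Gy it was -0.27, -0.35 and -0.45 without 5x2 Gy replicate 1, 2 and 3 (adjusted p = 0.223, 0.138 and 0.0617). A second Dctd probe (A_52_P183826) gave other values, at -0.27 ± 0.12, 0.23 ± 0.03 and -0.001 ± 0.13 (SD, n = 3, 2 and 3) after 2 Gy, 10 Gy and 5x2 Gy, so the 2 probes differ in sign at 10 Gy.

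**Figure D3:**
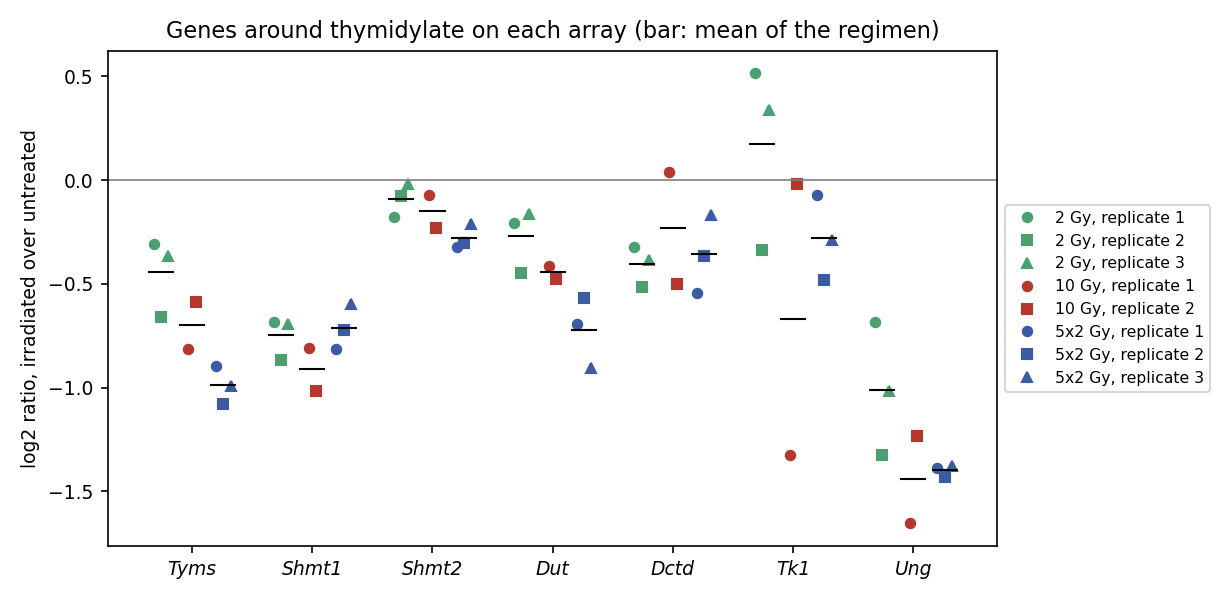
Log2 ratio of irradiated over untreated cells on each array for Tyms, Dut, Dctd and Tk1 and for 3 further genes of thymidylate supply and uracil removal (Shmt1, Shmt2, Ung), by regimen, with a bar at each regimen's mean. Ung lies at -0.69 to -1.65 and Shmt1 at -0.60 to -1.01 over all arrays, while Tk1 spans 0.52 to -1.32.

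The folate cycle that feeds Tyms was followed in 3 other genes. Shmt1, the cytosolic serine hydroxymethyltransferase that supplies the methylene group, fell by 0.75, 0.91 and 0.71 after 2 Gy, 10 Gy and 5x2 Gy (adjusted p = 0.00206, 0.000735 and 0.000609). Its mitochondrial paralogue Shmt2 fell by 0.28 after 5x2 Gy (SE 0.09, adjusted p = 0.0274), while Mthfd1 rose by 0.47 there (SE 0.12, adjusted p = 0.0118). Of the 3 genes, 1 was thus called lower after 2 Gy, 1 after 10 Gy and 2 after 5x2 Gy, with 1 called higher after 5x2 Gy. Over all genes, 7.92%, 15.8% and 23.3% were called lower after 2 Gy, 10 Gy and 5x2 Gy, and 17.6% higher after 5x2 Gy. With median centring Shmt2 was at -0.14 after 5x2 Gy (adjusted p = 0.419) and higher after 2 Gy, at 0.44 (adjusted p = 0.0374), and Mthfd1 was called higher in all 3 regimens. The calls of Shmt1 passed there too. Its 10 Gy call ended from the 10 Gy arrays alone (adjusted p = 0.124) and with array weights (0.102). With the slide as a random block its 2 Gy and 5x2 Gy calls ended (adjusted p = 0.124 and 0.0701).

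Ung, the glycosylase that removes uracil from DNA, had the lowest values of the 49 other pathway genes tested. Its log2 ratios were -0.69, -1.33 and -1.01 after 2 Gy, -1.65 and -1.23 after 10 Gy, and -1.39, -1.43 and -1.38 after 5x2 Gy. All arrays lie at or below -0.69. Ung fell in every regimen, with means of -1.01 after 2 Gy (SE 0.13, limma adjusted p = 0.00225), -1.44 after 10 Gy (SE 0.16, adjusted p = 0.00044) and -1.40 after 5x2 Gy (SE 0.13, adjusted p = 0.000185). With median centring these values were -0.83, -1.44 and -1.36. The 2 Gy call of Ung ended with the slide as a random block (-0.86, adjusted p = 0.188).

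Tk1, the cytosolic thymidine kinase of S phase, was not called in any comparison with untreated cells. Its log2 ratios were 0.52, -0.33 and 0.34 after 2 Gy, -1.32 and -0.02 after 10 Gy, and -0.07, -0.48 and -0.29 after 5x2 Gy. In each regimen the arrays differ in Tk1 more than in any other tested member, with an SD of 0.45 among the 2 Gy arrays, 0.92 between the 10 Gy arrays and 0.21 among the 5x2 Gy arrays. The means were 0.17 ± 0.23 after 2 Gy, -0.67 ± 0.28 after 10 Gy and -0.28 ± 0.23 after 5x2 Gy (SE, limma adjusted p = 0.634, 0.103 and 0.357). On 10 Gy replicate 1 the unnormalized signal was 13458 in irradiated cells against 16722 in untreated cells, and on the 2 Gy arrays of the same slide it was 30528, 18909 and 34667 against 14873, 13706 and 16776. Without 10 Gy replicate 2 the value at 10 Gy was -1.32, which rests on a single array. With median centring Tk1 was called higher after 2 Gy, at 0.70 (adjusted p = 0.0296). With the slide as a fixed block Tk1 passed in each regimen, at 0.83 after 2 Gy (adjusted p = 0.0155), -0.67 after 10 Gy (0.0074) and -0.93 after 5x2 Gy (0.00699). That block reads the slide from the 10 Gy arrays alone. The gap between these 2 arrays then moves the other 2 means and does not enter the spread. The 5x2 Gy value also passed with array weights (-0.29, adjusted p = 0.0299) and from the 5x2 Gy arrays alone (-0.28, adjusted p = 0.0295).

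Dck, which phosphorylates deoxycytidine, deoxyadenosine and deoxyguanosine, was lower on every array by small amounts. The log2 ratios were -0.31, -0.27 and -0.43 after 2 Gy, -0.21 and -0.33 after 10 Gy, and -0.07, -0.07 and -0.05 after 5x2 Gy. The single-dose arrays all lie below the 5x2 Gy arrays. Dck fell by 0.33 after 2 Gy (SE 0.08, limma adjusted p = 0.0254), and its means of -0.27 ± 0.10 after 10 Gy and -0.07 ± 0.08 after 5x2 Gy (SE) were not called (adjusted p = 0.0737 and 0.544). The 2 Gy call ended without any 1 of the 2 Gy arrays (-0.35 to -0.29 with adjusted p of 0.0846 to 0.189), without 5x2 Gy replicate 3 (adjusted p = 0.0568) and with median centring (-0.20, adjusted p = 0.110). The other 2 Dck probes above background were closer to 0 at 2 Gy, at -0.07 ± 0.10 (A_52_P602719) and -0.10 ± 0.17 (A_51_P500718; SD, n = 3 each). After 5x2 Gy they were at -0.13 ± 0.10 and -0.03 ± 0.12 (SD, n = 3 each). In neither do the single-dose arrays all lie below the 5x2 Gy arrays.

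Samhd1, the dNTP triphosphohydrolase that opposes the other members, was called lower after 5x2 Gy alone, and its values part by slide. Its log2 ratios were -0.16, -0.07 and 0.09 after 2 Gy, 0.12 and -0.65 after 10 Gy, and -0.49, -0.51 and -0.65 after 5x2 Gy. The 4 arrays of slide 2 lie at -0.49 to -0.65 and the 4 of slide 1 at -0.16 to 0.12, so that 10 Gy replicate 2 lies with 5x2 Gy and not with the other 10 Gy array. Samhd1 fell by 0.55 after 5x2 Gy (SE 0.13, limma adjusted p = 0.0103), with means of -0.05 ± 0.13 after 2 Gy and -0.27 ± 0.16 after 10 Gy (SE, adjusted p = 0.843 and 0.248). With the slide as a fixed block the 5x2 Gy value was -0.17 (adjusted p = 0.315), and without 5x2 Gy replicate 2 or 3 the adjusted p was 0.0509 and 0.0727. Without 10 Gy replicate 1 the 10 Gy value was -0.65, which rests on a single array. In the irradiated channel the signal lay at 1.28 times the detection level at its lowest. A second Samhd1 probe (A_52_P136316) did not meet the filter.

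**Figure D4:**
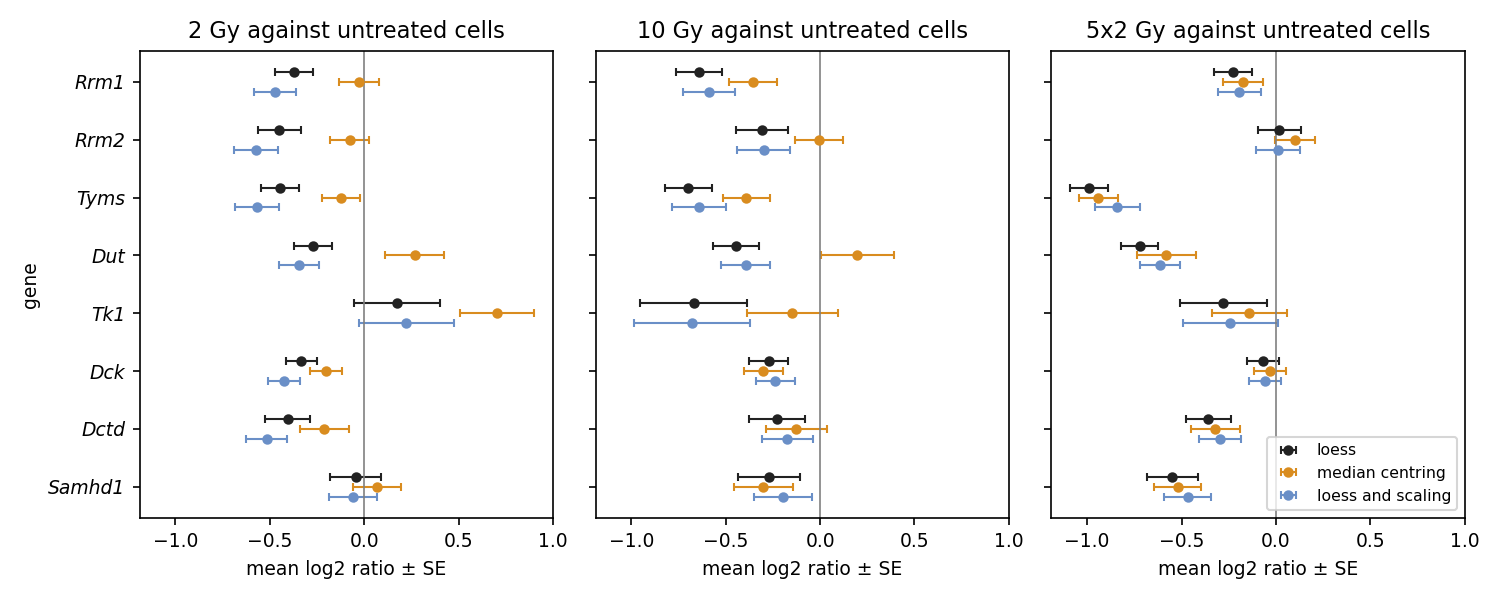
Mean log2 ratio ± SE of the 8 tested members against untreated cells after 2 Gy, 10 Gy and 5x2 Gy, with loess (the values reported), with median centring and with loess followed by scaling between arrays. After 5x2 Gy the 3 settings lie close together for all members, while Dut and Tk1 after 2 Gy move from -0.27 and 0.17 with loess to 0.27 and 0.70 with median centring.

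Fractionated and single doses were compared through the difference of their mean log2 ratios. In 10 Gy against 2 Gy, where 2.55% of all genes were called, 0 of the 8 members passed in limma and 1 had an unadjusted p under 0.05. In 5x2 Gy against 2 Gy, with 1.31% of genes called, 0 members passed and 5 had an unadjusted p under 0.05. In 5x2 Gy against 10 Gy, with 0% of genes called, 0 members passed and 1 had an unadjusted p under 0.05. A value that misses the threshold does not show that the regimens act alike, and the intervals below give what these arrays allow.

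After 5x2 Gy against 2 Gy, Tyms differed by -0.54 (95% interval -0.86 to -0.23, limma adjusted p = 0.0714) and Dut by -0.45 (-0.77 to -0.14, adjusted p = 0.0983), and in both genes all 5x2 Gy arrays lie below all 2 Gy arrays. Rrm2 differed by 0.47 (0.11 to 0.83, adjusted p = 0.117), with all 5x2 Gy arrays above all 2 Gy arrays. Samhd1 differed by -0.50 (-0.93 to -0.08, adjusted p = 0.143), also without overlap. Dck differed by 0.27 (0.0009 to 0.53, adjusted p = 0.195), without overlap in the tested probe. In the other 2 Dck probes above background the 2 regimens overlap. Their means after 2 Gy and 5x2 Gy were -0.07 and -0.13 (A_52_P602719) and -0.10 and -0.03 (A_51_P500718). The regimens of this comparison share no slide, so regimen and slide cannot be told apart within it. When either of the 10 Gy arrays was left out, 4 members passed, Tyms (adjusted p = 0.00884), Dut (0.0212), Rrm2 (0.0193) and Samhd1 (0.00813), at the same differences and with a spread estimated from the other arrays. In that setting 29.8% of all genes were called. With loess followed by scaling between arrays, Tyms differed by -0.27 (adjusted p = 0.353) and Dut by -0.27 (0.314), and with median centring by -0.82 (0.0266) and -0.85 (0.0561).

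**Figure D5:**
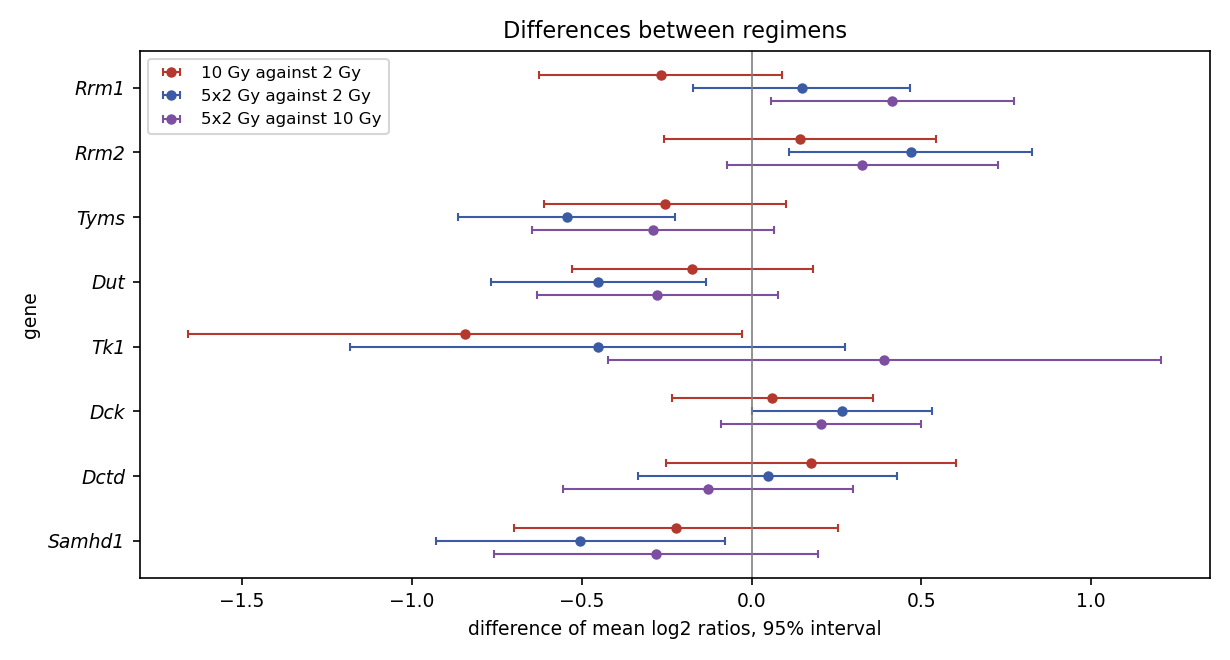
Difference of mean log2 ratios between regimens for the 8 tested members with 95% intervals, for 10 Gy against 2 Gy, 5x2 Gy against 2 Gy and 5x2 Gy against 10 Gy. The intervals of Tyms, Dut and Samhd1 lie below 0 and those of Rrm2 and, by 0.0009, Dck above 0 in 5x2 Gy against 2 Gy, and Tk1 has the widest intervals.

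Within slide 1, 10 Gy replicate 1 minus the mean of the 2 Gy arrays was -1.50 in Tk1, -0.38 in Rrm1, -0.37 in Tyms, -0.14 in Dut, -0.055 in Rrm2, 0.12 in Dck, 0.16 in Samhd1 and 0.45 in Dctd. Over both slides the differences of 10 Gy against 2 Gy were -0.27 in Rrm1 (95% interval -0.63 to 0.09, limma adjusted p = 0.381), -0.25 in Tyms (-0.61 to 0.10, adjusted p = 0.404) and -0.84 in Tk1 (-1.66 to -0.03, adjusted p = 0.230). Within slide 2, the mean of the 5x2 Gy arrays minus 10 Gy replicate 2 was -0.40 in Tyms, -0.26 in Tk1, -0.24 in Dut, 0.10 in Samhd1, 0.13 in Rrm2, 0.14 in Dctd, 0.26 in Dck and 0.30 in Rrm1. Over both slides Rrm1 differed by 0.41 in 5x2 Gy against 10 Gy (0.06 to 0.77, adjusted p = 0.257) and Tyms by -0.29 (-0.65 to 0.07, adjusted p = 0.366). For Samhd1 the difference over both slides was -0.28 (-0.76 to 0.20, adjusted p = 0.483) and that within slide 2 has the opposite sign. Each within-slide value rests on a single 10 Gy array. Leaving out the 10 Gy array of the other slide fits the same difference, with the lone array assumed to vary like the other groups. Leaving out the 10 Gy array of the same slide compares regimens on different slides, so regimen and slide cannot be told apart there. Without 10 Gy replicate 2, the differences in 5x2 Gy against 10 Gy are of this kind. They were 0.53 in Rrm1, 0.52 in Rrm2, 1.04 in Tk1 and -0.67 in Samhd1. Those of Tk1 and Samhd1 have the opposite sign within slide 2. Without 10 Gy replicate 1 the adjusted p in that comparison was 0.38 for Tyms, the lowest of the 8 members, and 0.846 for Samhd1, the highest. In 10 Gy against 2 Gy, Tk1 differed by -1.50 without 10 Gy replicate 2, which is the value within slide 1. Samhd1 differed there by -0.61 without 10 Gy replicate 1, across the slides, against 0.16 within slide 1.

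Over the 8 arrays the log2 ratios of Tyms and Dut correlated with r of 0.84, those of Rrm1 and Rrm2 with 0.60, and those of Tyms and Dck with -0.91. These are descriptions over arrays that share regimen, slide and dye. The genes most like each member over the 8 arrays were Ap1g1 (r of 0.984), Tspo2 (0.981) and Rac1 (0.952) for Rrm1, and Cisd3 (0.991), Tprn (0.981) and Tapt1 (0.979) for Rrm2. For Tyms they were Zc3h8 (0.979), Med30 (0.975) and Zfp983 (0.967), and for Dut Il1f5 (0.945), Moap1 (0.940) and Cfap53 (0.939). Zc3h8 also had means close to those of Tyms, at -0.53, -0.85 and -1.10 after 2 Gy, 10 Gy and 5x2 Gy, while the means of Med30 were 0.12, -0.09 and -0.21. For Tk1 they were Rpusd3 (0.972), Tmem238 (0.969) and Ankrd24 (0.966), and for Dck Tmem167b (0.967), Eps15l1 (0.960) and Mmp14 (0.957). For Dctd they were Tle3 (0.966), Cxcl2 (0.961) and Ppl (0.936), and for Samhd1 Mrpl3 (0.989), Gpt (0.988) and Atp5l (0.987). With 8 arrays and 13409 genes, coefficients of this size are found for each member.

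Of 51 other genes of nucleotide metabolism, 49 were tested, all but Cmpk2 and Dpyd, which were not above background. After 2 Gy 13 fell and 2 rose, beside 7.92% of all genes lower and 8.98% higher. After 10 Gy 7 fell and 8 rose, beside 15.8% and 12.4%, and after 5x2 Gy 15 fell and 11 rose, beside 23.3% and 17.6%. Their median log2 ratios were -0.12, 0.13 and -0.03. With median centring the balance turned at 2 Gy, with 6 lower and 14 higher. It was 5 lower and 13 higher after 10 Gy and 12 lower and 12 higher after 5x2 Gy. In that setting 26.9%, 29.1% and 39.0% of all genes were called. Shmt1, Ung, Umps, Ctps and Slc29a2 were called lower and Nt5c higher in each of the 3 comparisons with untreated cells. Umps, the last enzyme of UMP synthesis, fell by 0.47, 0.46 and 0.45 (limma adjusted p = 0.0147, 0.0211 and 0.00662). Ctps, CTP synthase, fell by 0.69, 0.85 and 0.69 (adjusted p = 0.0043, 0.00195 and 0.00149). Slc29a2, a nucleoside transporter, fell by 0.61, 0.61 and 0.49 (adjusted p = 0.0099, 0.0137 and 0.0102). Nt5c, a 5′ nucleotidase that acts on deoxynucleotides, rose by 0.50, 0.84 and 0.65 (adjusted p = 0.0114, 0.00146 and 0.00131). With median centring Umps was at -0.07 and -0.10 after 2 Gy and 10 Gy and Ctps at -0.28 after 2 Gy, none of them called, while Nt5c and Slc29a2 passed in all 3 comparisons. With the mean over all kept probes Umps was at -0.31 after 10 Gy and -0.21 after 5x2 Gy, not called (adjusted p = 0.083 and 0.117). From the 10 Gy arrays alone the 10 Gy calls of Umps, Ctps, Slc29a2 and Nt5c ended (adjusted p = 0.494, 0.155, 0.329 and 0.149). Calls also ended with single arrays left out. At 2 Gy these were Umps without any 1 of the 2 Gy arrays (adjusted p = 0.0622 to 0.114), Ctps without 2 Gy replicate 3 (0.0534), Slc29a2 without 2 Gy replicate 2 or 3 (0.0949 and 0.0815) and Nt5c without 2 Gy replicate 1 or 3 (0.0752 and 0.0795). At 5x2 Gy they were Umps without 5x2 Gy replicate 2 (0.0586) and Slc29a2 without 5x2 Gy replicate 1 or 3 (0.0861 and 0.0562). Without 10 Gy replicate 1 the 10 Gy values of Umps and Slc29a2 were -0.27 and -0.40, each from a single array.

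Genes of purine synthesis and of transport were also called in each regimen. After 5x2 Gy 3 of the 11 genes of purine synthesis rose and 2 fell. Of the 4 transport genes 2 fell and 0 rose there, beside 23.3% of all genes lower and 17.6% higher. Prps1, which makes the ribose phosphate donor, fell by 0.80 after 2 Gy (SE 0.15, limma adjusted p = 0.00839), and 4 of the 11 genes of purine synthesis fell there with none higher, against 7.92% of all genes lower. With median centring Prps1 was at -0.42 (adjusted p = 0.0341), and Impdh2, another of the 11, was called higher after 2 Gy, at 0.78 (adjusted p = 0.00358). Slc25a33, a mitochondrial pyrimidine nucleotide carrier, fell by 0.74 after 2 Gy (SE 0.12, adjusted p = 0.00457). It also fell by 0.67 after 5x2 Gy (SE 0.12, adjusted p = 0.00243) and was not called after 10 Gy (-0.34, adjusted p = 0.106). At 2 Gy Prps1 missed the threshold without 2 Gy replicate 2 or 3 (adjusted p = 0.082 and 0.0649) and Slc25a33 without 2 Gy replicate 2 (0.0516). Impdh2, the first step towards guanine nucleotides, rose by 0.97 after 10 Gy (SE 0.21, adjusted p = 0.00928), where 3 of the 11 genes of purine synthesis rose and 1 fell, 4 of 11 called in either direction beside 28.2% of all genes. From the 10 Gy arrays alone its adjusted p was 0.124, and with median centring its value was 1.60 (adjusted p = 0.000545). Of the 7 genes of breakdown tested, 0 fell in any regimen by limma, and 1, 2 and 2 rose after 2 Gy, 10 Gy and 5x2 Gy, the same numbers as had an unadjusted p under 0.05. Over all genes, 8.98%, 12.4% and 17.6% were called higher in these regimens. Between regimens, 2 pathway genes were called higher in 10 Gy against 2 Gy, 1 lower in 5x2 Gy against 2 Gy and 0 in 5x2 Gy against 10 Gy, where 6 had an unadjusted p under 0.05. Over all genes, 2.55%, 1.31% and 0% were called in these comparisons.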

How the data were processed

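Arrays of 2 colours compared irradiated LLC1 cells (Cy5) with untreated ones (Cy3). Per the file headers, the deposited scanner files hold the intensity of each of 45220 spots per channel, quantified with ImaGene 9.0, with no background correction, log or normalization. The authors' deposited matrix gives a log2 value per probe and array; that it is Cy5 over Cy3 was settled by slopes of 0.993 to 0.999 against loess ratios of the same arrays (r over probes of 0.998 to 1.000). Its column medians were -0.005 to 0.009, so each is centred near 0; it served as an alternative.

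Using limma 3.58.1 (R 4.3.3), mean signals were corrected by normexp (offset 50) on the foreground, since no local background is given, and normalized by loess within arrays, giving control spots a weight of 0. Of 41174 probes, 21685 were kept, those above background on 2 or more arrays in either channel. Symbols were updated through RefSeq accessions: 27903 probes matched a current symbol, 1588 of them changed, 7041 kept the array's symbol and 6230 had none. Ctps is the symbol for the listed Ctps1. The brightest kept probe of each gene was tested. One mean per regimen was fitted over 8 arrays, so all regimens share 1 estimate of spread, with eBayes and no trend. The number of arrays, 2 or 3 a regimen, limits precision. The code was tested on simulated data.

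The members and lists were chosen with earlier results of these data known. Every member was named with all its probes, with the 3 genes most like it in r. Other pathway genes were named if called in each of the 3 comparisons with untreated cells, or among up to 4 with the largest value of those called in a comparison; Glrx, Shmt2 and Mthfd1 were added after their values were seen. A gene each of the pathway and marker lists is not reported here. Motifs were counted by exact match. Alternatives covered background correction, dye balance, scaling, filter, probes, flagged spots, slide, replicate number, array weights and arrays left out. The slide as a fixed block reads the slide from the 10 Gy arrays alone.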

Additional observations from a re-analysis of the deposited data

Results flagged for a closer look

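No member differed between regimens past the threshold, and groups of 2 or 3 arrays are too small for a check of single outlying arrays. Among the other pathway genes 3 differences between regimens passed in limma. Nme1, a nucleoside diphosphate kinase, was higher in 10 Gy against 2 Gy by 0.81 (SE 0.18, adjusted p = 0.0467), with means of 0.34 after 10 Gy and -0.47 after 2 Gy. It passed in 11 of 23 alternatives, at 0.69 to 0.91 (adjusted p from 0.0154 to 0.571). Itpa, which removes inosine triphosphate from the pool, was higher in 10 Gy against 2 Gy by 0.84 (SE 0.15, adjusted p = 0.0309), with means of 0.58 after 10 Gy and -0.26 after 2 Gy. It passed in 12 of 23 alternatives, at 0.67 to 0.88 (adjusted p from 0.00241 to 0.403). Nme3, another nucleoside diphosphate kinase, was lower in 5x2 Gy against 2 Gy, at -0.90 (SE 0.14, adjusted p = 0.0365), with means of -0.56 after 5x2 Gy and 0.34 after 2 Gy. It passed in 15 of 23 alternatives, at -1.02 to -0.79 (adjusted p from 4.03e-05 to 0.196), and its regimens share no slide.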

How the results depend on the processing

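The count of members called against untreated cells, 5 after 2 Gy, 3 after 10 Gy and 4 after 5x2 Gy, moved by over 1.5 times as follows. After 2 Gy it was 1 with median centring, 0 with the slide as a random block and 1 with the replicate number as a block. After 10 Gy it was 1 with median centring, 7 and 1 with the slide as a fixed and as a random block, 0 with array weights and 0 from the 10 Gy arrays alone. After 5x2 Gy it was 1 with the slide as a random block. Between regimens, where 0 passed, it was 1 with the slide as a fixed or a random block in 10 Gy against 2 Gy; in 5x2 Gy against 2 Gy it was 1 with median centring, 2 with the slide as a fixed block, 6 with array weights and 4 from those arrays alone. With 1 array left out, the counts ranged from 0 to 6 after 2 Gy, 2 to 5 after 5x2 Gy and 0 to 4 in 5x2 Gy against 2 Gy. The shares of all genes called ranged from 3.04% to 40.2%, 22.4% to 59.5% and 0% to 29.8%. Without a 10 Gy array 1 array is left at that dose, so no count is given for comparisons with it. With any other array left out 3 members were called after 10 Gy, with 21.7% to 24.1% of all genes. In 10 Gy against 2 Gy and in 5x2 Gy against 10 Gy 0 were then called, with at most 0.0373% and 0% of all genes.

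Deviations of arrays with the same replicate number correlated at -0.243 to 0.115. Those of the 10 Gy arrays, which lie on different slides, mirror each other. With 5x2 Gy replicate 1 they correlated at -0.243 and 0.243. These correlations therefore cannot decide whether the replicate numbers pair the arrays. The replicate number as a block gave 1422, 2274 and 0 genes after 2 Gy, after 10 Gy and in 10 Gy against 2 Gy. Without it 2266, 3777 and 342 genes were called. In 5x2 Gy against 2 Gy the replicate block gave 0 genes against 175. Loess with scaling between arrays gave 4126, 27 and 56 genes after 2 Gy, in 10 Gy against 2 Gy and in 5x2 Gy against 2 Gy, and median centring gave 3609, 493 and 745. The share of higher calls was 40.6% in 10 Gy against 2 Gy, against 20.9% with median centring and 14.8% with scaling, and 29.1% in 5x2 Gy against 2 Gy, against 7.11% with median centring. The slide as a fixed block gave 4459, 6516, 4298 and 2369 genes after 2 Gy, after 10 Gy, in 10 Gy against 2 Gy and in 5x2 Gy against 2 Gy; as a random block it gave 21, 1468, 831 and 2893 after 2 Gy, after 10 Gy, after 5x2 Gy and in 10 Gy against 2 Gy. Array weights gave 7272, 222, 8951, 2 and 6013 genes after 2 Gy, 10 Gy and 5x2 Gy, in 10 Gy against 2 Gy and in 5x2 Gy against 2 Gy. The arrays of the compared groups alone gave 4818, 280, 0 and 4001 after 2 Gy, after 10 Gy, in 10 Gy against 2 Gy and in 5x2 Gy against 2 Gy. Of all 21685 kept probes, 3490, 5804, 9076 and 421 were called after 2 Gy, 10 Gy and 5x2 Gy and in 5x2 Gy against 2 Gy. These are counts of probes, not of the 13409 genes. With no filter 8436 of 21384 genes were called after 5x2 Gy, a share of 39.5% beside 41.0% as reported. The count of other pathway genes called ranged from 0 to 31 after 2 Gy, 1 to 25 after 10 Gy and 2 to 36 after 5x2 Gy over the same alternatives, which were added for these genes after seeing the data.

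Values that changed sign were these. With median centring Dut was at 0.27 after 2 Gy and 0.20 after 10 Gy, Samhd1 at 0.068 after 2 Gy, Dck at -0.10 in 10 Gy against 2 Gy, and in 5x2 Gy against 2 Gy Rrm1 at -0.15 and Dctd at -0.11. With the slide as a fixed block Rrm2 was at -0.18 after 5x2 Gy, in 10 Gy against 2 Gy Rrm2 at -0.055 and Samhd1 at 0.16, in 5x2 Gy against 2 Gy Rrm1 at -0.077 and Samhd1 at 0.26, and in 5x2 Gy against 10 Gy Tk1 at -0.26, Dctd at 0.14 and Samhd1 at 0.10. With the slide as a random block Rrm2 was at -0.12 after 5x2 Gy, Samhd1 at 0.044 in 10 Gy against 2 Gy, Rrm1 at -0.0087 and Samhd1 at 0.031 in 5x2 Gy against 2 Gy, and Tk1 at -0.065 and Dctd at 0.061 in 5x2 Gy against 10 Gy. With array weights Samhd1 was at 0.032 after 2 Gy and Rrm2 at -0.024 after 5x2 Gy. With the mean over all probes Dctd was at 0.00092 after 10 Gy and Dck at -0.026 in 10 Gy against 2 Gy, and without flagged spots Rrm2 was at -0.055 there. With 1 array left out, ranges that cross 0 were -0.11 to 0.010 for Samhd1 after 2 Gy, -0.50 to 0.042 for Dctd and -0.65 to 0.12 for Samhd1 after 10 Gy, and -0.088 to 0.082 for Rrm2 after 5x2 Gy. In 10 Gy against 2 Gy they were -0.055 to 0.34 for Rrm2, -0.096 to 0.45 for Dctd and -0.61 to 0.16 for Samhd1, and in 5x2 Gy against 2 Gy -0.048 to 0.14 for Dctd. In 5x2 Gy against 10 Gy they were -0.26 to 1.04 for Tk1, -0.40 to 0.14 for Dctd and -0.67 to 0.10 for Samhd1. Of these values, Dut after 10 Gy is the only one called as reported. The cause was not tested. Signals near the detection level limit Samhd1 and Dck, and those of Rrm2b lie below it.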
